A study of Mus musculus with 10 samples.

Results

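Solute carriers are membrane proteins that move amino acids, sugars, nucleosides, vitamins, metals, ions and organelle metabolites across the plasma membrane and the membranes of mitochondria, Golgi and lysosomes. The genes described here are the solute carriers expressed in mouse regulatory T cells (Tregs, the Foxp3-expressing T cells that restrain immune responses), and they numbered 140 of the 330 gene symbols of the form Slc, number, a, number in the deposited tables. A symbol was taken when its mean RPKM (reads per kilobase of transcript, scaled to library size, as deposited) was at least 1 in any of the 4 groups. The members were thus selected on these levels, with no use of a test. The well-studied glucose, lactate and large neutral amino acid transporter genes Slc2a1, Slc2a3, Slc16a3, Slc3a2 and Slc7a5 were set aside by name. Symbols of lettered subfamilies, such as Slc35b or Slco, were outside the rule.

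All mice were C57BL/6J. The TCR + TSLP group (2 libraries) held natural Tregs of wild-type spleen cultured for 24 h with anti-CD3 and anti-CD28, which stimulate the T cell receptor (TCR), together with thymic stromal lymphopoietin (TSLP), an epithelial cytokine of allergic inflammation. The TCR group (2 libraries) had the same culture without TSLP. The Crlf2-deleted group (3 libraries) held Tregs from the allergic lungs of OVA-immunized Crlf2fl/fl Foxp3YFP-Cre mice, in which the Cre is driven by the Treg gene Foxp3 and removes Crlf2, the TSLP receptor chain. The control group (3 libraries) held Tregs from OVA-immunized Foxp3YFP-Cre mice, labelled wild-type, so that both lung groups carried the Cre. Neither the labels nor the protocols say whether replicates were separate animals or cultures, and the p-values therefore cover only the spread among these libraries, which may be technical. In these bulk libraries, fewer cells of a type and less RNA per cell cannot be told apart.

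Resting T cells take up few nutrients, and stimulation through the T cell receptor is known to raise uptake of amino acids, glucose and iron as the cells grow and divide. Glutamine and neutral amino acids enter through members such as Slc1a5, Slc38a1 and Slc38a2, and arginine and lysine through Slc7a1. The Slc39 (ZIP) proteins bring zinc into the cytosol and the Slc30 (ZnT) proteins take it out of the cytosol, while most Slc25 proteins are carriers of the inner mitochondrial membrane. Slc35 proteins carry nucleotide sugars into the Golgi and endoplasmic reticulum for glycosylation.

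The spleen libraries held 27237313 to 51671901 reads on genes and the lung libraries 1439675 to 18349039, with the fewest in control library 2. Crlf2 had 1.49, 1.07 and 0.643 RPKM in Crlf2-deleted lung Tregs, against 11.5, 16.3 and 14.9 RPKM in control lung Tregs. Foxp3 had 22.6, 27.5 and 27.4 RPKM in Crlf2-deleted lung Tregs, against 20.8, 17.3 and 10.0 RPKM in control lung Tregs, and 16.1 to 18.7 RPKM in the spleen libraries. The summed RPKM of 6 Treg and T cell markers was 246, 235 and 272 in Crlf2-deleted lung Tregs, against 145, 154 and 99.3 in control lung Tregs, and 391.8 and 407 in TCR + TSLP cultures, against 243 and 274 in TCR cultures. In deposited RPKM these marker sums did not overlap between the groups in either comparison. In spleen the largest rise was that of Il2ra, with means of 174 RPKM in TCR + TSLP and 87.2 RPKM in TCR cultures. Foxp3 means there were 17.7 and 16.2 RPKM. In lung the groups overlapped for Il2ra but not for the other markers of this list. Deposited RPKM also ran higher over all genes, with median log2 fold changes of 0.29 in spleen and 0.28 in lung (limma on log2(RPKM + 1)). Control library 3 stood apart: the summed RPKM of 5 erythroid markers was 26511 there, against 252 and 847 in the other control libraries and 375 to 495 in Crlf2-deleted libraries. Its summed macrophage, monocyte and dendritic cell markers were also higher (733 RPKM, against 39.6 and 50.1 RPKM in the other control libraries and 186 to 217 RPKM in Crlf2-deleted libraries). Reads of the airway gene Scgb1a1 ran from 1141 to 27531 RPKM in the lung libraries and were at 0 in the spleen libraries. The deposited RPKM is scaled to a library total of which the listed reads were 28.6 to 33.8% in Crlf2-deleted, 21.2 to 30.1% in control, 63.6 to 63.8% in TCR + TSLP and 52.9 to 59.7% in TCR libraries, so deposited RPKM are lower in lung than in spleen for the same share of gene reads.

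The solute carriers were divided by substrate into 10 classes. Of the 140, 35 belonged to the mitochondrial carrier family, 23 carried metals or haem, 20 amino acids or peptides, 20 inorganic ions or acid and base, 11 nucleosides, nucleobases or nucleotide sugars, 11 sugars or polyols, 7 vitamins or cofactors, 6 lipids, choline or bile acids, 4 carboxylates and 3 organic ions or amines. The classes kept unequal shares of the symbols that matched the name pattern: 35 of 47 mitochondrial carriers and 11 of 14 nucleoside and nucleotide sugar transporters were expressed, but only 3 of 42 organic ion and amine transporters, a class used mainly by liver, kidney and neurons. Most solute carriers were at low levels. The adenine nucleotide translocases Slc25a5 and Slc25a4, which exchange ATP and ADP across the inner mitochondrial membrane, and the mitochondrial phosphate carrier Slc25a3 together made up 28.6 to 30.3% of the summed RPKM of all 140 in Crlf2-deleted, 30.6 to 32.3% in control, 42.1 to 43.1% in TCR + TSLP and 39.6 to 44.2% in TCR libraries.

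Per kilobase, Slc25a5 was the most abundant mitochondrial carrier in all 4 groups, at a mean of 101.5 RPKM in Crlf2-deleted, 90.4 RPKM in control, 315 RPKM in TCR + TSLP and 194.5 RPKM in TCR libraries. Many processed copies of Slc25a5 exist in mammalian genomes, and no source used here says how reads that match several places were treated, so its level is uncertain. Among amino acid transporters the glutamine transporter Slc1a5 led with 55.7 RPKM in Crlf2-deleted, 32.7 RPKM in control, 56.9 RPKM in TCR + TSLP and 39.6 RPKM in TCR libraries. The leading metal transporter was Slc39a7, which releases zinc from the endoplasmic reticulum (20.9 RPKM in Crlf2-deleted, 12.8 RPKM in control, 31.7 RPKM in TCR + TSLP and 30.6 RPKM in TCR libraries). The leading nucleoside transporter was the equilibrative carrier Slc29a1 (11.1 RPKM in Crlf2-deleted, 7.78 RPKM in control, 34.5 RPKM in TCR + TSLP and 33.1 RPKM in TCR libraries). Slc50a1, a sugar transporter, and the choline transporter-like gene Slc44a2 lay between 13.5 and 23.3 RPKM in every group mean. Slc16a1, the lactate and pyruvate transporter, had 0.627 RPKM in Crlf2-deleted and 0.692 RPKM in control, but 16.8 RPKM in TCR + TSLP and 8.33 RPKM in TCR libraries. The lung and spleen libraries differ in tissue, stimulation and preparation at once, and these cannot be told apart.

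The threshold of 1 RPKM was reached in all 4 groups by 75 of the 140, in 3 groups by 13, in 2 by 30 and in 1 by 22. By group, it was reached by 102 genes in Crlf2-deleted and 92 in control lung Tregs, and by 117 in TCR + TSLP and 110 in TCR cultures. Deposited RPKM are lower in lung for the same share of gene reads, so the threshold was stricter there and these counts do not compare tissues. Rescaled to gene reads, Slc35a3 had means of 4.30 in Crlf2-deleted, 3.88 in control, 7.11 in TCR + TSLP and 2.13 in TCR libraries. Being at the threshold in 1 group alone thus holds for deposited RPKM only. The genes at the threshold in TCR + TSLP cultures alone were Slc35a3, Slc25a16, Slc1a4, Slc16a10, Slc7a3, Slc16a13, Slc45a4, Slc35a5 and Slc5a2, and those in TCR cultures alone were Slc7a14, Slc28a3 and Slc26a10. Control lung Tregs alone held Slc16a11, Slc14a1, Slc34a2, Slc7a8 and Slc25a35 at the threshold, and Crlf2-deleted lung Tregs alone held Slc2a9, Slc25a29, Slc4a8, Slc36a4 and Slc36a1. These genes were taken through the group in which they were high, so their differences are given as values only. Just inside the threshold lay Slc25a35 (1.02 RPKM in its highest group), Slc5a2 (1.06 RPKM) and Slc26a10 (1.11 RPKM), and just outside it Slc43a1 (0.998 RPKM), Slc7a2 (0.984 RPKM) and Slc25a2 (0.838 RPKM).

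In TSLP-treated spleen Tregs the solute carriers that changed were mostly higher than in Tregs with TCR stimulation alone. Among the 139 that passed the filter on low counts (the phosphate transporter Slc34a2 did not), 51 were higher and 10 lower at an adjusted p under 0.05, and 78 were not called. Over all 13214 genes tested, 45.8% were called, 22.7% higher and 23.1% lower, beside 43.9% of the solute carriers, 36.7% higher and 7.19% lower. Their median log2 fold change was 0.16, against 0.01 over all genes. The counts moved with transcript length: the median solute carrier transcript had 3277 bases, against 2729.5 bases over all tested genes. With the trend of fold change on length removed, 39 were higher and 22 lower (over all genes 41.6% were called, 20.9% higher and 20.7% lower), and the median was 0.08. The split also depended on scaling, at 78 higher and 2 lower with limma on log2(RPKM + 1), where the median of all genes was 0.29, and 73 higher and 5 lower with library totals, where it was 0.24. The median of the solute carriers was 0.40 with limma on log2(RPKM + 1) and 0.39 with library totals. Over all genes, limma called 6542 of 10798 and library totals 7059 of 13214. The split of these calls by direction is not given here.

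The threshold of membership itself touches this comparison. Of the 106 genes at 1 RPKM or more in both spleen groups, 42 were higher and 6 lower, with a median of 0.15. A separate fit of genes with a mean RPKM of at least 1 in either spleen group called 5262 of all 9672 genes. It called 64 of 121 solute carriers, 49 higher and 15 lower. Median log2 fold changes in that fit were 0.14 for the solute carriers and 0.01 for all genes. The split of all genes by direction is not given for it. Of the 11 at the threshold in TCR + TSLP but not TCR cultures, 8 were higher, and all 4 at the threshold in TCR but not TCR + TSLP cultures were lower, directions that the choice of members favours. The changes were modest: 31 of the 61 called genes differed by at least 1.5-fold and 7 by at least 2-fold. Among these 7, Slc35a3, Slc25a16, Slc28a3, Slc26a10 and Slc7a14 were taken through 1 spleen group alone, so the choice of members favours their differences. Shares of all genes at these sizes are not given here. Groups did not overlap for 73 genes that were higher and 36 that were lower, beside 38.1% and 37.3% of all genes tested. With 2 libraries a group, leaving out one left 27 to 82 solute carriers called, fewest without TCR + TSLP library 2 (21 higher and 6 lower) and 39 without TCR + TSLP library 1.

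**Figure D1:**
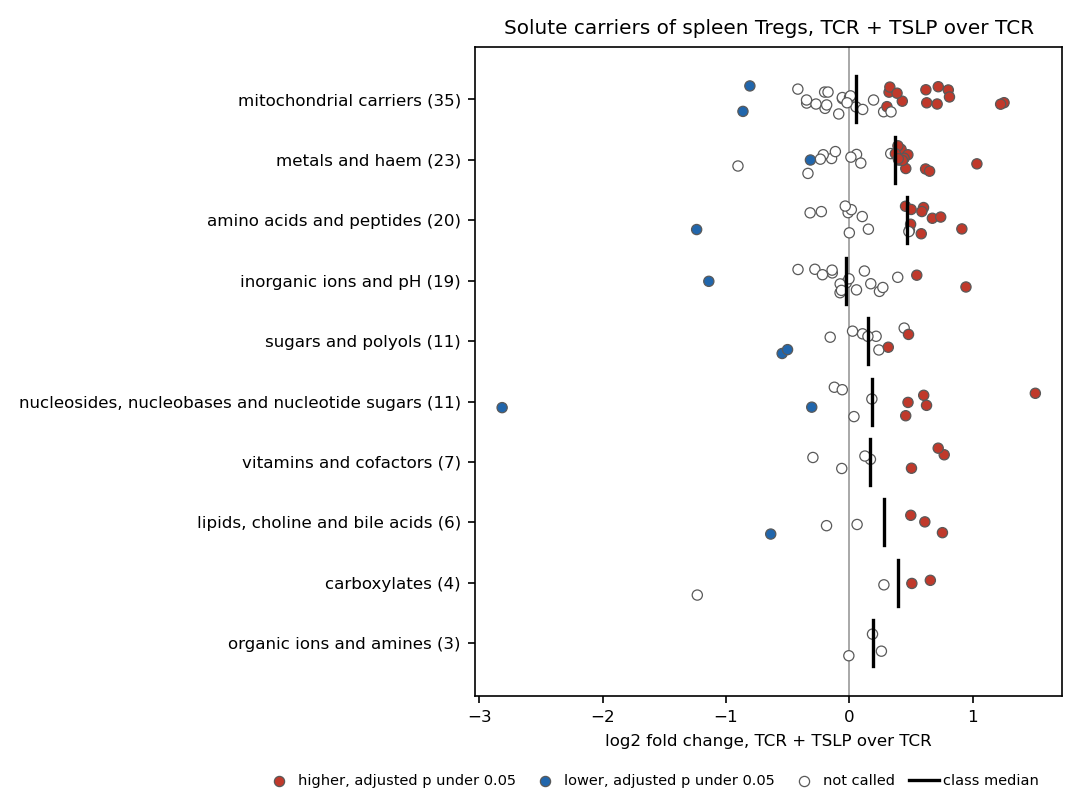
Each point is a solute carrier gene of spleen Tregs, placed by its log2 fold change of TCR + TSLP over TCR cultures (2 libraries each) on the horizontal axis and its substrate class on the vertical axis, with the number tested in brackets. Red points were higher and blue points lower at an adjusted p under 0.05 (edgeR), open points were not called, and black bars are class medians; red points fill the right side of the metal, amino acid and mitochondrial classes, and the lowest point is Slc28a3 at -2.81.

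The rises are shown here in single libraries, with the promoter sequences of the genes. Slc39a10, a zinc importer of the plasma membrane (chromosome 1, 46807544 to 46925776, GRCm38), had normalised read counts (CPM, counts scaled to library size) of 29.5 and 31.4 CPM in TCR + TSLP cultures, against 14.3 and 15.4 in TCR cultures. Slc25a36, a mitochondrial carrier of pyrimidine nucleotides (chromosome 9, 97075281 to 97111041), had 20.8 and 22.7 CPM in TCR + TSLP cultures, against 9.57 and 8.98 in TCR cultures. Slc16a1 (chromosome 3, 104638664 to 104658462) had 160.0 and 151 CPM in TCR + TSLP cultures, against 85.8 and 112 in TCR cultures. Both TCR + TSLP libraries lay above both TCR libraries for each gene, and the log2 fold changes were 1.04 ± 0.11 SE, 1.23 ± 0.12 SE and 0.66 ± 0.13 SE (adjusted p = 0.000308, 0.000235 and 0.0043, edgeR). With the length trend removed the values were 0.82, 1.08 and 0.44, all called. With the GC trend removed too they were 0.64, 0.81 and 0.23, and Slc16a1 was not called (adjusted p = 0.113). TSLP signals through STAT transcription factors, which bind sites of the form TTCNNNGAA, and the E-box CACGTG is bound by MYC-family factors. The windows from 250 bases before to 50 after each start (RefSeq, GRCm38.p6) are printed 5′ to 3′ because they carry such letters, which stand in capitals. Where a gene has several starts, the first window by position with such letters was taken, and windows without them were skipped. The Slc39a10 window, chr1:46925727-46926026 on the minus strand, holds TTCTTAGAA from 82 bases before the start. The Slc25a36 window, chr9:97110992-97111291 on the minus strand, holds TTCATTGAA from 212 and CACGTG from 187 bases before the start. The Slc16a1 window, chr3:104638414-104638713 on the plus strand, holds CACGTG from 200 bases before the start.
Slc39a10: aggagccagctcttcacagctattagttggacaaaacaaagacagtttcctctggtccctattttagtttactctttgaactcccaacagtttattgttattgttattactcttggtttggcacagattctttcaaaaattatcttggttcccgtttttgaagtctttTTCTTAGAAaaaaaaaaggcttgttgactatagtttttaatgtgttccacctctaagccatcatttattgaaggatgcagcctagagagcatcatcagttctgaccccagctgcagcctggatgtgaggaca
Slc25a36: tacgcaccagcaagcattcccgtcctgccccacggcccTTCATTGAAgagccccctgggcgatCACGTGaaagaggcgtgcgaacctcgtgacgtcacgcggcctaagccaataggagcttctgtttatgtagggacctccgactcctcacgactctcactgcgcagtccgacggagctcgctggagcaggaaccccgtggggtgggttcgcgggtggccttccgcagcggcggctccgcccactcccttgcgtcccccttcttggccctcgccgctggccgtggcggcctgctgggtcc
Slc16a1: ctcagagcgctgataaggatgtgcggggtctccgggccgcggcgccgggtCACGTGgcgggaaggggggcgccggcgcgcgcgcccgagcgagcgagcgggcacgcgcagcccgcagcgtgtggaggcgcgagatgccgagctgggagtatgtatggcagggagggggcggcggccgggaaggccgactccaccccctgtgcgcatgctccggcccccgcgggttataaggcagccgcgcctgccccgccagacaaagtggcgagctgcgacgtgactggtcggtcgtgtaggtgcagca
Windows were given for 105 of the 140 genes. TTCNNNGAA, searched on both strands, was in 6 of these 105 and in 9.55% of the 27025 genes with a window, including 3 of the 34 genes called higher (Slc39a10, Slc25a36 and Slc7a1) and 0 of the 10 called lower. CACGTG was in 23 of 105 and in 8.09% of all genes with a window, with 9 of the 34 called higher and 3 of the 10 called lower. The amino acid response core TGATGNAA was in 5 of 105 and in 4.51% of all, with 1 of the 34 (Slc1a4) and 2 of the 10. These matches describe letters in a window and do not show binding.

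The amino acid transporters held 9 of 20 genes called higher and 1 called lower, with a median log2 fold change of 0.47 (9 higher and 2 lower with the length trend removed). The count of higher genes includes Slc1a4, Slc7a3 and Slc16a10, taken through TCR + TSLP cultures alone, and the lower gene is Slc7a14, taken through TCR cultures alone. The choice of members favours the directions of these genes. Slc38a2, which takes up neutral amino acids with sodium, had 150.1 and 159 CPM in TCR + TSLP cultures, against 92.9 and 91.7 in TCR cultures. For Slc38a2 the log2 fold change came to 0.74 ± 0.09 SE (adjusted p = 0.000481). The taurine transporter Slc6a6 had 72.1 and 78.5 CPM in TCR + TSLP cultures, against 52.8 and 47.3 in TCR cultures. For Slc6a6 the log2 fold change came to 0.59 ± 0.10 SE (adjusted p = 0.00268). Slc7a6, which exchanges cationic for neutral amino acids, had 66.9 and 71.7 CPM in TCR + TSLP cultures, against 48.4 and 49.6 in TCR cultures (log2 fold change 0.50). For all of these genes the groups did not overlap.

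The main arginine and lysine importer Slc7a1 had 166 and 187 CPM in TCR + TSLP cultures, against 132 and 118 in TCR cultures (log2 fold change 0.50 ± 0.10 SE, adjusted p = 0.00545), and its relative Slc7a3 had 6.5 and 6.86 CPM in TCR + TSLP cultures, against 2.63 and 4.47 in TCR cultures (log2 fold change 0.91). Slc7a3 reached 1 RPKM in TCR + TSLP cultures alone. The glutamine transporter Slc38a1 had 203 and 219 CPM in TCR + TSLP cultures, against 156 and 152 in TCR cultures. For Slc38a1 the log2 fold change came to 0.46 ± 0.09 SE (adjusted p = 0.00398). The more abundant glutamine transporter Slc1a5 had 320.0 and 334 CPM in TCR + TSLP cultures, against 292 and 295 in TCR cultures, which did not pass the test (log2 fold change 0.16, adjusted p = 0.16). The glycine transporter Slc6a9 was higher (0.58, adjusted p = 0.00939), although 30.2% of the exon bases of Slc6a9 are shared with Ccdc24 on the other strand. Slc1a4 (alanine, serine and cysteine) and Slc16a10 (aromatic amino acids), taken into the set through TCR + TSLP cultures alone, had log2 fold changes of 0.60 and 0.67. Slc7a11, which imports cystine for glutathione synthesis, had 33.5 and 30.8 CPM in TCR + TSLP cultures, against 23.6 and 40.7 in TCR cultures, where the TCR libraries lay on both sides of the TCR + TSLP libraries. Slc7a14, taken into the set through TCR cultures alone, had 16.7 and 18.3 CPM in TCR + TSLP cultures, against 57.3 and 25.3 in TCR cultures, with TCR library 1 far above TCR library 2.

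Genes of the amino acid response, a program in which the kinase GCN2 and the factor ATF4 raise transport and synthesis of amino acids, were read beside the transporters: 10 of 15 were higher and 2 lower. Over all genes tested, 22.7% were higher and 23.1% lower. The genes named from this list were chosen after their values were seen. Sesn2, a stress-induced inhibitor of mTORC1, had 28 and 30.6 CPM in TCR + TSLP cultures, against 10.2 and 9.58 in TCR cultures (log2 fold change 1.57 ± 0.11 SE, adjusted p = 0.000159), and the serine synthesis gene Psat1 had 358 and 355 CPM in TCR + TSLP cultures, against 202 and 247 in TCR cultures. For Psat1 the log2 fold change came to 0.67 ± 0.11 SE (adjusted p = 0.00212). Cth, an enzyme of cysteine synthesis, was also higher (log2 fold change 1.22, adjusted p = 0.00744). Atf4 itself did not pass the test (0.10, adjusted p = 0.538), Phgdh, the first enzyme of serine synthesis, had a log2 fold change of 0.03 (adjusted p = 0.835), and Ddit3, another gene of the response, was lower (-0.92, adjusted p = 0.000623). With the length trend removed the list held 11 higher and 1 lower, and Ddit3 was not called (-0.29, adjusted p = 0.0514).

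Metal transporters held the most calls outside the mitochondrial carriers, with 12 of 23 higher and 1 lower and a median log2 fold change of 0.37. These counts were the most sensitive to transcript length, at 5 higher and 3 lower with the length trend removed. Besides Slc39a10, the zinc importers Slc39a8, which also carries manganese, and Slc39a6 were higher. Slc39a8 had 20.4 and 21.2 CPM in TCR + TSLP cultures, against 12.4 and 14.1 in TCR cultures (log2 fold change 0.65 ± 0.11 SE, adjusted p = 0.00286), and Slc39a6 had 74.5 and 71.8 CPM in TCR + TSLP cultures, against 45 and 50.2 in TCR cultures (log2 fold change 0.62 ± 0.10 SE, adjusted p = 0.00183); with the length trend removed, the log2 fold changes were 0.82 for Slc39a10, 0.47 for Slc39a8 and 0.42 for Slc39a6, all still called. The zinc importers Slc39a4, Slc39a9 and Slc39a14, the ZnT genes Slc30a4, Slc30a5 and Slc30a7 that load zinc into the secretory pathway and vesicles, the magnesium transporter Slc41a1 and the copper importer Slc31a1 were higher by 0.37 to 0.48 on the log2 scale, and of these 8 only Slc39a4 was still called with the length trend removed. Slc39a7 was lower, at 163 and 154 CPM in TCR + TSLP cultures, against 197.6 and 196.4 in TCR cultures (log2 fold change -0.31, adjusted p = 0.0169), but its sign turned with deposited RPKM (0.05 in limma on log2(RPKM + 1)) and 80.7% of its exon bases are shared with the readthrough gene model Gm20427.

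Slc11a2, which imports ferrous iron from the endosome, had 26.1 and 27.5 CPM in TCR + TSLP cultures, against 20.3 and 20.3 in TCR cultures. For Slc11a2 the log2 fold change came to 0.40 ± 0.10 SE (adjusted p = 0.0124). Its phagocyte relative Slc11a1 was under 1.1 CPM in every spleen library, at 0.562 and 0.532 CPM in TCR + TSLP cultures, against 1.05 and 0.997 in TCR cultures, and did not pass the test. Among 15 genes of iron handling, 8 were higher and 5 lower, with a median of 0.57. The transferrin receptor Tfrc had 798 and 805 CPM in TCR + TSLP cultures, against 503 and 567 in TCR cultures (log2 fold change 0.58 ± 0.09 SE, adjusted p = 0.002), and Ncoa4, which delivers ferritin to lysosomes, had 60.5 and 63.8 CPM in TCR + TSLP cultures, against 26 and 31 in TCR cultures. For Ncoa4 the log2 fold change came to 1.13 ± 0.11 SE (adjusted p = 0.000283). Both ferritin subunit genes were lower: Fth1 had 389.9 and 349 CPM in TCR + TSLP cultures, against 681 and 661 in TCR cultures (log2 fold change -0.86) and Ftl1 had a log2 fold change of -0.64, with adjusted p = 0.000373 and 0.00111; with the length trend removed, the values were -0.65 for Fth1 (adjusted p = 0.00178) and -0.09 for Ftl1 (adjusted p = 0.261). The list as a whole then held 9 higher and 2 lower. Tfrc was 0.37 with the length trend removed (adjusted p = 0.0162) and was not called with the GC trend removed too (0.08, adjusted p = 0.341). The zinc-binding metallothioneins Mt1 and Mt2 were lower, with log2 fold changes of -0.94 and -1.28 (adjusted p = 0.000538 and 0.000397), and 0.07 and -0.29 with the length trend removed (adjusted p = 0.571 and 0.101).

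Among 35 genes of the mitochondrial carrier family, 13 were higher and 2 lower, and the class median was 0.06 (10 higher and 4 lower with the length trend removed). Besides Slc25a36, Slc25a16, a carrier linked to coenzyme A, had 13 and 12.5 CPM in TCR + TSLP cultures, against 4.38 and 6.3 in TCR cultures (log2 fold change 1.26), and it reached 1 RPKM in TCR + TSLP cultures alone. Slc25a13, which exports aspartate from mitochondria in the malate-aspartate shuttle, had 27 and 26.9 CPM in TCR + TSLP cultures, against 17.2 and 17.6 in TCR cultures. For Slc25a13 the log2 fold change came to 0.63 ± 0.10 SE (adjusted p = 0.00183). Its paralogue Slc25a12 was also higher (0.32, adjusted p = 0.0282; 0.19, adjusted p = 0.0893, with the length trend removed). Slc25a40, a carrier of mitochondrial glutathione import, had 13.7 and 13.2 CPM in TCR + TSLP cultures, against 7.09 and 8.22 in TCR cultures. For Slc25a40 the log2 fold change came to 0.81 ± 0.13 SE (adjusted p = 0.00222). The peroxisomal cofactor carrier Slc25a17 (0.71) and the folate and FAD carrier Slc25a32 (0.62) were also higher; with the length and GC trends removed Slc25a32 was not called (0.23, adjusted p = 0.0847).

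The mitoferrins import iron into mitochondria, and they moved in opposite directions. Slc25a28 (mitoferrin 2) had 18.9 and 19.3 CPM in TCR + TSLP cultures, against 35.1 and 31.6 in TCR cultures (log2 fold change -0.81 ± 0.10 SE, adjusted p = 0.000744), so that both TCR + TSLP libraries lay below both TCR libraries. Slc25a37 (mitoferrin 1) had 49.3 and 52.1 CPM in TCR + TSLP cultures, against 41.1 and 40.9 in TCR cultures (log2 fold change 0.31 ± 0.09 SE, adjusted p = 0.0281), but was not called with the length trend removed (0.10, adjusted p = 0.316). The difference between the 2 genes was not tested. Slc25a42, the coenzyme A carrier of the inner membrane, was lower at 9.02 and 9.89 CPM in TCR + TSLP cultures, against 21.7 and 12.7 in TCR cultures (log2 fold change -0.86, adjusted p = 0.0168), with TCR library 1 well above library 2. The abundant carriers did not pass the test: Slc25a5 had 821 and 806 CPM in TCR + TSLP cultures, against 553 and 733 in TCR cultures (adjusted p = 0.0658), Slc25a4 a log2 fold change of 0.01 and Slc25a3 one of -0.17. With the length trend removed Slc25a5 and Slc25a4 were called higher (0.70 and 0.45, adjusted p = 0.00278 and 0.00526) and Slc25a3 was not (0.04).

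Nucleoside, nucleobase and nucleotide sugar transporters held 5 of 11 genes called higher and 2 lower, with a median of 0.18. Among them Slc35a3 and Slc35a5 (higher) were taken through TCR + TSLP cultures alone and Slc28a3 (lower) through TCR cultures alone, directions that the choice of members favours. Slc35a3, which brings UDP-N-acetylglucosamine into the Golgi for N-glycan branching (chromosome 3, 116669469 to 116712708, GRCm38), had 23.7 and 29.2 CPM in TCR + TSLP cultures, against 9.1 and 9.5 in TCR cultures, the highest fold change of the 139 genes (log2 fold change 1.51). Because it reached 1 RPKM in TCR + TSLP cultures alone, no test is given for it. The UDP-galactose transporter Slc35a2 (0.48, adjusted p = 0.00932) and the family member Slc35a4 (0.46, adjusted p = 0.00927) were higher, whereas the CMP-sialic acid transporter Slc35a1 had 26.9 and 23 CPM in TCR + TSLP cultures, against 18.6 and 25.3 in TCR cultures, with overlapping groups. Slc43a3, a purine nucleobase transporter, had 31.4 and 31.6 CPM in TCR + TSLP cultures, against 19.3 and 21.5 in TCR cultures. For Slc43a3 the log2 fold change came to 0.63 ± 0.10 SE (adjusted p = 0.00223). Slc28a3, a sodium-coupled nucleoside importer taken through TCR cultures alone, had 2.57 and 2.14 CPM in TCR + TSLP cultures, against 24.3 and 8.62 in TCR cultures, a log2 fold change of -2.81, with TCR library 1 almost 3 times TCR library 2. Slc29a1 was lower by a small step, at 151 and 151 CPM in TCR + TSLP cultures, against 182 and 191 in TCR cultures (log2 fold change -0.30, adjusted p = 0.0188), with the opposite sign in deposited RPKM (0.07 in limma on log2(RPKM + 1)). Of 21 tested genes of lettered subfamilies, most of them relatives of Slc35, 8 were higher and 4 lower (6 and 6 with the length trend removed). The shares over all genes tested were 22.7% higher and 23.1% lower.

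Vitamin transporters held 3 of 7 genes called higher and none lower (3 and 1 with the length trend removed). The thiamine transporter Slc19a2 had 26.9 and 27 CPM in TCR + TSLP cultures, against 14.6 and 16.9 in TCR cultures. For Slc19a2 the log2 fold change came to 0.77 ± 0.11 SE (adjusted p = 0.00126). The ascorbate transporter Slc23a2 had 32 and 37.1 CPM in TCR + TSLP cultures, against 22.5 and 19.4 in TCR cultures (log2 fold change 0.72 ± 0.12 SE, adjusted p = 0.00242), and the biotin and pantothenate transporter Slc5a6 had a log2 fold change of 0.50 (adjusted p = 0.0126). The reduced folate carrier Slc19a1, the most abundant of the class, had 74.5 and 74.2 CPM in TCR + TSLP cultures, against 63.1 and 68.9 in TCR cultures and did not pass the test (adjusted p = 0.162).

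Of 4 carboxylate transporters 2 were higher, Slc16a1 and Slc16a6. Slc16a6 had 33 and 35.5 CPM in TCR + TSLP cultures, against 23.9 and 24.3 in TCR cultures. For Slc16a6 the log2 fold change came to 0.51 ± 0.10 SE (adjusted p = 0.0044). It shares 22.5% of its exon bases with Amz2 on the other strand, which had a log2 fold change of -0.11. Of 6 lipid, choline and bile acid genes, 3 were higher and 1 lower: the bile acid family members Slc10a3 (0.76, adjusted p = 0.00298) and Slc10a7 (0.50, adjusted p = 0.00718) and the acetyl-coenzyme A transporter of the endoplasmic reticulum Slc33a1 (0.61, adjusted p = 0.00399) were higher, and the fatty acid transport protein Slc27a1 had 6.07 and 5.53 CPM in TCR + TSLP cultures, against 10.8 and 7.22 in TCR cultures (log2 fold change -0.64). With the length and GC trends removed Slc10a7 (0.21, adjusted p = 0.132), Slc33a1 (0.29, adjusted p = 0.0509) and Slc27a1 (-0.54, adjusted p = 0.0582) were not called. Slc10a3 shares 12.8% of its exon bases with Ubl4a, which was lower (-1.07), and Slc33a1 32.0% with the gene model Gm26850.

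Transporters of inorganic ions and acid or base were called least often among the classes of more than 10 genes: 2 of 19 were higher and 1 lower, with a median of -0.02 (2 higher and 5 lower with the length trend removed). The bicarbonate importer Slc4a7 had 45.2 and 48.6 CPM in TCR + TSLP cultures, against 25.2 and 23.5 in TCR cultures. For Slc4a7 the log2 fold change came to 0.95 ± 0.10 SE (adjusted p = 0.000355). The sodium, potassium and chloride cotransporter Slc12a2 had 31.5 and 32.2 CPM in TCR + TSLP cultures, against 23.2 and 20.4 in TCR cultures. For Slc12a2 the log2 fold change came to 0.55 ± 0.11 SE (adjusted p = 0.00436). It was not called with the length and GC trends removed (0.16, adjusted p = 0.157). Slc26a10 of the anion exchanger family, near the threshold of 1 RPKM and taken through TCR cultures alone, had 3.21 and 2.83 CPM in TCR + TSLP cultures, against 7.25 and 6.02 in TCR cultures; 17.8% of its exon bases are shared with B4galnt1, which was also lower (-0.77). The phosphate importer Slc20a1 had 79.3 and 76.6 CPM in TCR + TSLP cultures, against 83.7 and 80.4 in TCR cultures (adjusted p = 0.519).

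Sugar transporters held 2 higher and 2 lower genes of 11. Slc2a6, a hexose transporter of lysosomes, was lower at 24.2 and 27.2 CPM in TCR + TSLP cultures, against 39.4 and 35.5 in TCR cultures (log2 fold change -0.54 ± 0.11 SE, adjusted p = 0.00502), and Slc50a1 was lower at 43.9 and 43.2 CPM in TCR + TSLP cultures, against 58.9 and 64.3 in TCR cultures (log2 fold change -0.50 ± 0.10 SE, adjusted p = 0.00404), although its log2 fold change was 0.00 with the length trend removed. Slc37a3 was higher by 0.32 and was not called with the length trend removed (0.12). Slc45a4, taken through TCR + TSLP cultures alone, had a log2 fold change of 0.48. Of the 3 organic ion transporters none was called. Among the genes set aside by name, the glucose transporters Slc2a3 (0.82, adjusted p = 0.000372) and Slc2a1 (0.38, adjusted p = 0.0105) and the large neutral amino acid transporter Slc7a5 (0.90, adjusted p = 0.000353) were higher, the lactate exporter Slc16a3 was lower (-0.33, adjusted p = 0.017), and Slc3a2, the heavy chain partner of Slc7a5, did not pass the test (0.19, adjusted p = 0.115). Accessory subunits and other carriers showed no common direction, with 5 higher and 4 lower of 23 (22.7% higher and 23.1% lower over all genes tested). Among them the lactate transporter chaperone Bsg (-0.27, adjusted p = 0.0373) and the mitochondrial pyruvate carrier subunit Mpc2 (-0.85, adjusted p = 0.000431) were both lower. With the length trend removed neither was called, at -0.15 (adjusted p = 0.0996) for Bsg and -0.20 (adjusted p = 0.0758) for Mpc2, and the list held 4 higher and 3 lower.

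**Figure D2:**
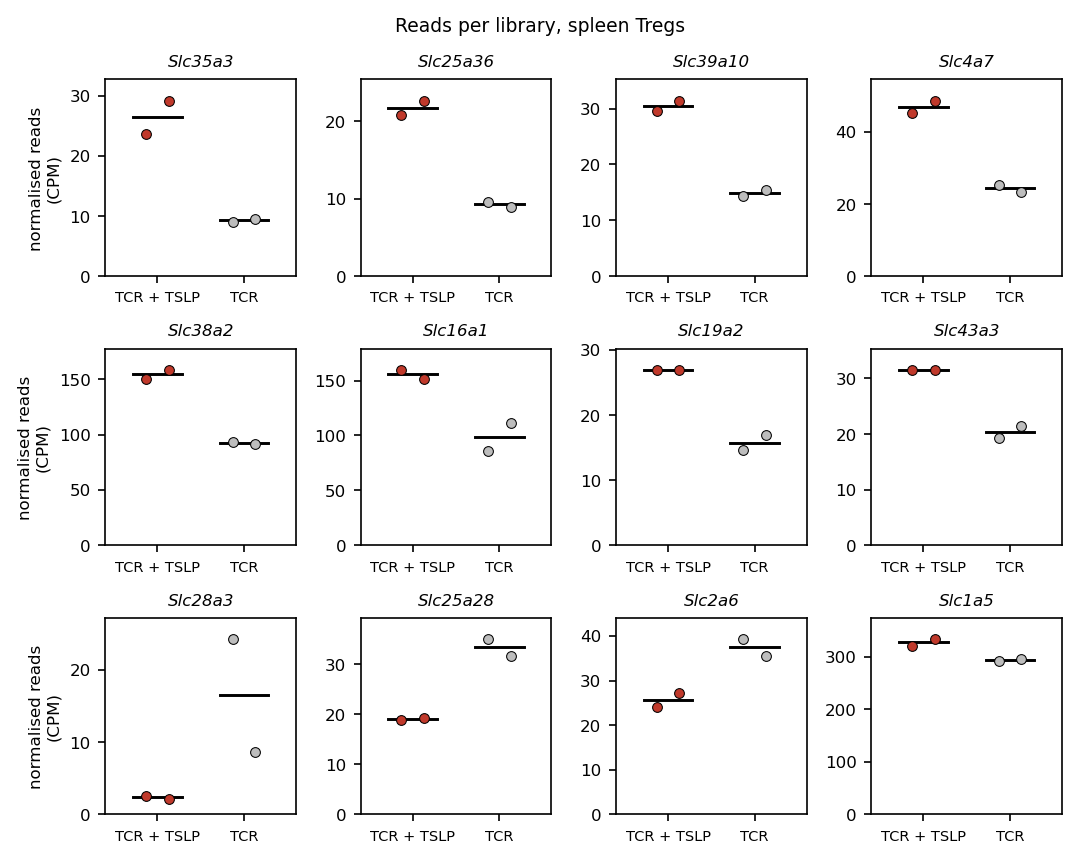
Each panel plots normalised read counts (CPM, vertical axis from 0) of 1 gene in the 2 TCR + TSLP libraries (red) and the 2 TCR libraries (grey), with bars at the group means. Both red points lie above both grey points in the 8 panels of the first 2 rows and for Slc1a5, whose groups stand close together, and below them for Slc28a3, Slc25a28 and Slc2a6; the TCR libraries of Slc28a3 lie at 24.3 and 8.62 CPM.

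In lung Tregs few solute carriers differed between Crlf2-deleted and control mice. Of 138 tested (Slc30a4 and Slc7a3 did not pass the filter), 2 were higher, Slc37a2 and Slc16a6, and 2 lower, Slc28a2 and Slc14a1, at an adjusted p under 0.05. Slc14a1 reached 1 RPKM in control lung Tregs alone, so the choice of members favours its direction, and it is described by its values only. Over all 12717 genes tested 1.79% were called, 0.771% higher and 1.01% lower. The median log2 fold change was -0.04 for the solute carriers and for all genes. With unadjusted p under 0.05 there were 27 of 138 solute carriers (19.6%) and 2017 of all genes (15.9%), and the groups did not overlap for 18 solute carriers that were higher and 16 that were lower, beside 10.5% and 11.6% of all genes. The split of calls depended on scaling, at 14 higher and 1 lower with limma on log2(RPKM + 1), where the median of all genes was 0.28, and 2 higher and 0 lower with library totals, where it was 0.14. The medians of the solute carriers were 0.33 and 0.14. Splits of all genes by direction are not given for these settings. With the length trend removed, 2 solute carriers were again higher and 2 lower (1.78% of all genes called, 0.763% higher and 1.01% lower). The class medians ran from -0.70 for the 3 organic ion transporters to 0.35 for sugar transporters. In deposited RPKM, the Treg and T cell marker sums were higher in every Crlf2-deleted library than in every control library, and their part in these differences was not tested.

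Slc37a2, an endoplasmic reticulum antiporter of glucose 6-phosphate and phosphate that is abundant in macrophages (chromosome 9, 37229149 to 37255738, GRCm38), had 28.4, 34.2 and 29.9 CPM in Crlf2-deleted lung Tregs, against 4.68, 6.84 and 6.24 in control lung Tregs. For Slc37a2 the log2 fold change came to 2.41 ± 0.27 SE (adjusted p = 0.00995). Every Crlf2-deleted library was more than 4 times every control library. The summed macrophage, monocyte and dendritic cell markers were 190, 186 and 217 RPKM in Crlf2-deleted libraries, against 39.6, 50.1 and 733 RPKM in control libraries, and control library 3, with the highest sum, had 6.24 CPM of Slc37a2, between the other control libraries. The part of macrophage RNA in this difference was not tested. Slc37a2 had 10.7 and 11.2 CPM in TCR + TSLP cultures, against 12.2 and 12.2 in TCR cultures, which did not pass the test.

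Slc16a6, a member of the monocarboxylate transporter family (chromosome 11, 109450855 to 109473598), had 39.9, 48.4 and 52.2 CPM in Crlf2-deleted lung Tregs, against 22.5, 26.7 and 20.7 in control lung Tregs. For Slc16a6 the log2 fold change came to 1.03 ± 0.20 SE (adjusted p = 0.046). Amz2, with which it shares 22.5% of exon bases on the other strand, had a log2 fold change of -0.12. Slc28a2, a sodium-coupled importer of purine nucleosides (chromosome 2, 122426357 to 122461152), had 32.1, 39.5 and 33 CPM in Crlf2-deleted lung Tregs, against 69.1, 67.7 and 55.5 in control lung Tregs. For Slc28a2 the log2 fold change came to -0.87 ± 0.17 SE (adjusted p = 0.0493). The urea transporter Slc14a1, which is also a red cell membrane protein, had 10.5, 18.4 and 8.93 CPM in Crlf2-deleted lung Tregs, against 52.3, 32.8 and 36.2 in control lung Tregs (log2 fold change -1.69). The erythroid marker sum was 26511 RPKM in control library 3, where Slc14a1 was not the highest of the control libraries, and the part of red cell RNA in its level was not tested. All 3 Crlf2-deleted libraries lay outside the range of the 3 control libraries for each of these genes.

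These calls rested on few libraries. Without control library 3, 6 solute carriers were higher and 2 lower (over all genes 4.11% were called, 1.95% higher and 2.17% lower). The log2 fold change of Slc14a1 was then -1.78. Slc37a2 (2.53, adjusted p = 0.00483) and Slc28a2 (-0.97, adjusted p = 0.0256) kept their calls, Slc16a6 lost its call (0.96, adjusted p = 0.0549), and Slc11a1 (2.17, adjusted p = 0.00792), the copper transporter Slc31a2 (1.31, adjusted p = 0.0266), the lysosomal nucleoside transporter Slc29a3 (1.13, adjusted p = 0.0354), the riboflavin transporter Slc52a2 (1.07, adjusted p = 0.0383) and the potassium and chloride cotransporter Slc12a4 (1.36, adjusted p = 0.0466) were called higher. Slc11a1, a metal transporter of phagocyte vesicles, had 28.4, 26.7 and 31.2 CPM in Crlf2-deleted lung Tregs, against 7.22, 4.79 and 47.4 in control lung Tregs: the Crlf2-deleted libraries lay between the low control libraries 1 and 2 and the high control library 3, as did the macrophage marker sums. The part of macrophage RNA in these values was not tested. Leaving out 1 of the other libraries left 0 to 3 solute carriers called, with 0 without Crlf2-deleted library 1 or 3, 1 without control library 1 or 2 and 3 without Crlf2-deleted library 2.

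The genes next in rank did not pass the test. The lysosomal transporter Slc46a3 had 22.1, 26.2 and 22.6 CPM in Crlf2-deleted lung Tregs, against 38, 48.6 and 48.6 in control lung Tregs (log2 fold change -0.93, adjusted p = 0.0571). Slc25a37, which is abundant in erythroid cells, had 17.7, 23.6 and 19.1 CPM in Crlf2-deleted lung Tregs, against 33.2, 37.6 and 62.2 in control lung Tregs (log2 fold change -1.15, adjusted p = 0.0887), and -0.80 without control library 3, which held the highest value and the highest erythroid marker sum. Slc25a42 had 13.1, 12.7 and 11.9 CPM in Crlf2-deleted lung Tregs, against 4.15, 3.42 and 5.49 in control lung Tregs (adjusted p = 0.0887), and Slc27a1 had 35, 32.6 and 29.3 CPM in Crlf2-deleted lung Tregs, against 17.4, 17.8 and 19.8 in control lung Tregs (adjusted p = 0.0932). The zinc transporter Slc39a13 (0.88, adjusted p = 0.14) and the urate transporter Slc2a9 (0.83, taken through Crlf2-deleted lung Tregs alone) also had non-overlapping groups.

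Single libraries set some large differences. Slc7a8, a neutral amino acid exchanger, had 5.06, 3.92 and 9.35 CPM in Crlf2-deleted lung Tregs, against 3.08, 6.16 and 62.7 in control lung Tregs, and Slc2a6 had 7.6, 16.6 and 12.2 CPM in Crlf2-deleted lung Tregs, against 10.8, 15.1 and 79.6 in control lung Tregs; both were high in control library 3 alone. Slc16a11 had 8.47, 3.12 and 2.09 CPM in Crlf2-deleted lung Tregs, against 94.4, 6.84 and 10.5 in control lung Tregs, high in control library 1 alone, which also had the highest lung epithelial marker sum (27722 RPKM, against 5218 and 9595 RPKM in the other control libraries and 1157 to 8070 RPKM in Crlf2-deleted libraries). The airway gene Scgb1a1 made up 27531 RPKM of that sum. Of the other markers, Sftpb, Sftpa1, Epcam and Cdh1 were also highest in control library 1, but Sftpc was highest in control library 3 (111 RPKM, against 36.8 RPKM in library 1). The part of other cells in these values was not tested.

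The transporters of amino acids had no calls in the lung comparison. Slc1a5 had 670.5, 686 and 660.4 CPM in Crlf2-deleted lung Tregs, against 573, 573 and 453 in control lung Tregs (log2 fold change 0.34, adjusted p = 0.22), and Slc38a2 had 155, 172 and 149.6 CPM in Crlf2-deleted lung Tregs, against 170.0, 219.6 and 192 in control lung Tregs (-0.28, adjusted p = 0.358). Slc38a1 (-0.02), Slc7a1 (-0.17), Slc7a6 (-0.01) and Slc7a11 (-0.26) had overlapping groups. Of the metal genes, the iron importer Slc11a2 had 23.5, 24.7 and 24.2 CPM in Crlf2-deleted lung Tregs, against 30.6, 38.3 and 33.9 in control lung Tregs (adjusted p = 0.248) and Slc39a6 had a log2 fold change of 0.16 (adjusted p = 0.718). Slc20a1 had 57.7, 62.5 and 50.1 CPM in Crlf2-deleted lung Tregs, against 26.7, 40.4 and 39.8 in control lung Tregs (adjusted p = 0.157), and the log2 fold changes of Slc4a7, Slc16a1, Slc19a1, Slc25a5, Slc29a1 and Slc35a1 ran from -0.57 to 0.46, none called. Of the accompanying lists, 0 of 15 iron handling, 0 of 4 metallothionein and zinc and 0 of 23 accessory genes were called. Of 14 amino acid response genes, 1 was higher (Ddit4, an mTORC1 inhibitor, 0.93, adjusted p = 0.0446). Of 20 genes of lettered subfamilies, 1 was lower (the prostaglandin transporter Slco2a1, -5.86, adjusted p = 0.0262, near 0 in Crlf2-deleted libraries). Over all genes tested, 0.771% were higher and 1.01% lower.

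**Figure D3:**
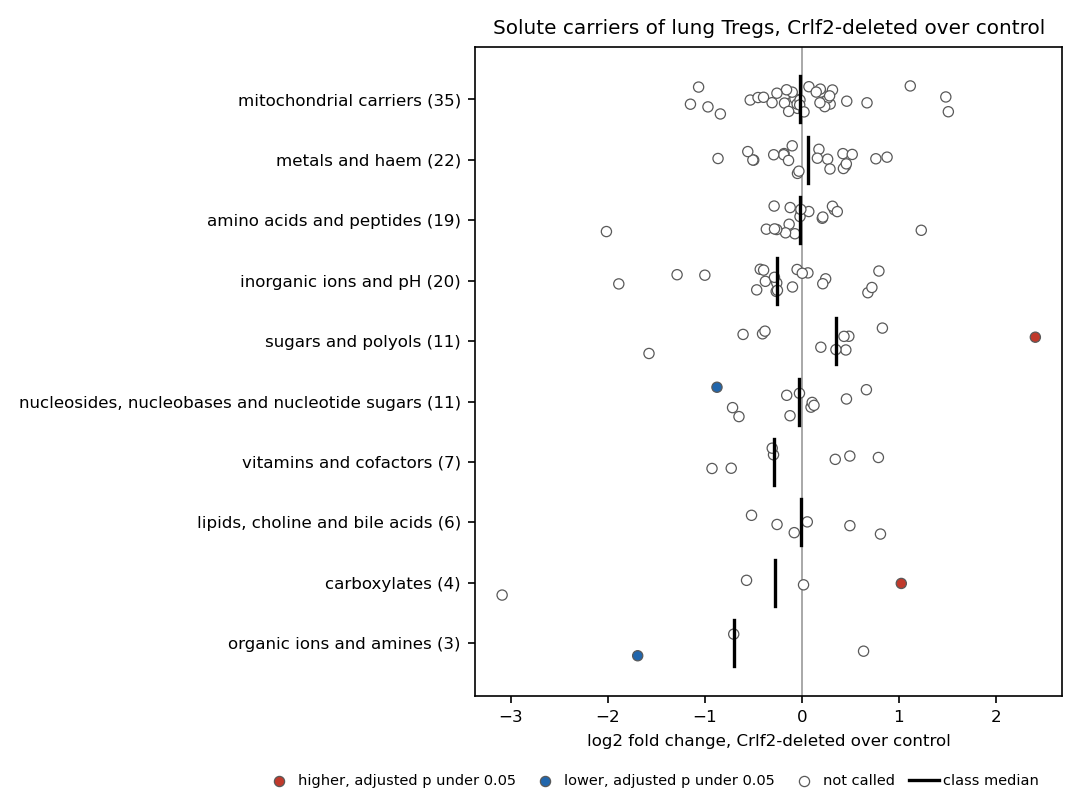
Each point is a solute carrier gene of lung Tregs, placed by its log2 fold change of Crlf2-deleted over control libraries (3 each) on the horizontal axis and its substrate class on the vertical axis, with the number tested in brackets. Filled points were called at an adjusted p under 0.05 (edgeR; red higher, blue lower), open points were not, and black bars are class medians; Slc37a2 stands farthest right at 2.41, and Slc16a11, not called, farthest left at -3.09.

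**Figure D4:**
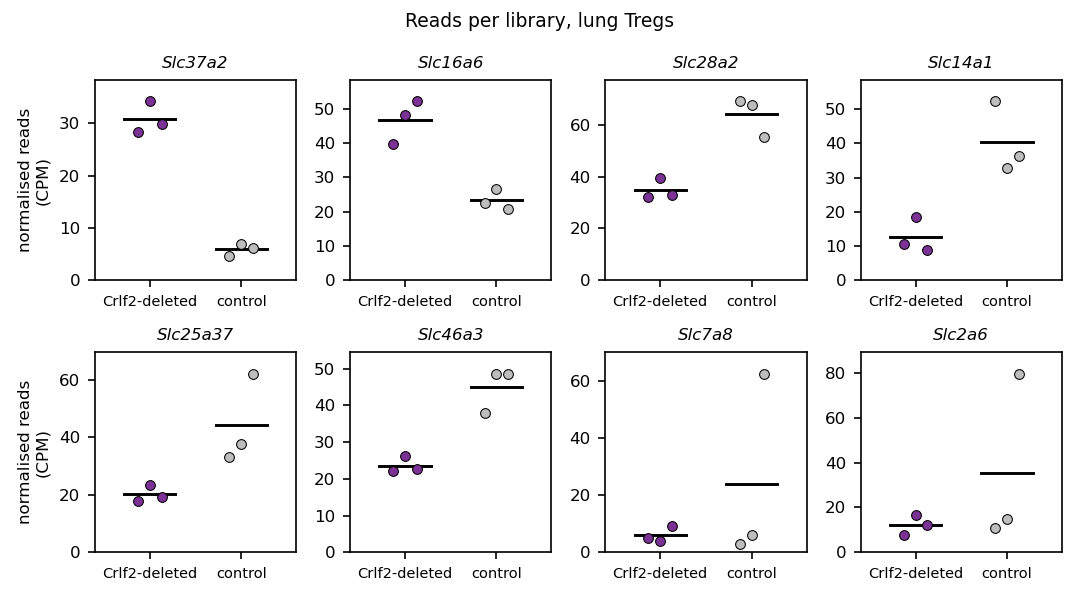
Each panel plots normalised read counts (CPM, vertical axis from 0) of 1 gene in the 3 Crlf2-deleted (purple) and 3 control (grey) lung Treg libraries, with bars at the group means. The groups are apart for the 4 called genes of the upper row and for Slc25a37 and Slc46a3, and Slc7a8 and Slc2a6 are high in control library 3 alone (62.7 and 79.6 CPM).

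Control lung Tregs and TCR-stimulated spleen Tregs differ in tissue, stimulation and preparation at once, so their levels are set side by side without a test. On log2(RPKM + 0.5), the median gap of lung control over TCR was -0.40 for the 140 genes and -0.87 for 10530 symbols at 1 RPKM or more, and 0.54 and 0.05 when RPKM was rescaled to gene reads. The largest gaps towards spleen were those of Slc16a1 (0.851, 0.445 and 0.781 RPKM in control lung Tregs, against 6.78 and 9.88 RPKM in TCR cultures), Slc25a28 (1.14, 0.271 and 1.07 RPKM, against 8.01 and 8.08 RPKM) and the zinc transporter Slc30a9 (0.856, 0.609 and 1.04 RPKM, against 5.07 and 5.98 RPKM). Slc20a1, Slc29a1, Slc24a5, Slc25a42 and the mitochondrial ATP-magnesium and phosphate carrier Slc25a23 followed, with gaps of -2.05 to -1.74. These 8 genes stayed lower in lung when RPKM was rescaled to gene reads (-2.31 to -0.95), and no lung control library overlapped a TCR library. Slc24a5 shares 39.5% of its exon bases with Myef2, and Slc20a1 13.1% with the gene model 9830144P21Rik, both on the other strand. The levels of Slc24a5 and Slc20a1 are therefore uncertain.

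In the other direction stood genes barely expressed in the spleen cultures. Slc46a3 had 2.63, 3.04 and 3.86 RPKM in control lung Tregs, against 0.146 and 0.188 RPKM in TCR cultures, and the riboflavin transporter Slc52a3 had 2.39, 2.85 and 1.82 RPKM, against 0.0705 and 0.0873 RPKM. The endosomal and Golgi sodium-proton exchangers Slc9a9 (1.81, 1.61 and 2.15 RPKM, against 0.21 and 0.251 RPKM) and Slc9a7 (2.15, 1.26 and 1.76 RPKM, against 0.203 and 0.266 RPKM) were also above 1 RPKM in every control library. Each varied less than 2-fold among the control libraries. The part of other lung cells in their levels was not tested.

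The remaining high lung genes were Slc34a2, which was above 1 RPKM in every control library, and Slc11a1, Slc7a8 and Slc16a11, each high in 1 control library. Slc34a2, the phosphate transporter of alveolar type II cells, had 1.77, 1.32 and 1.71 RPKM in control lung Tregs and was at 0 in both TCR libraries, and it had 0.303, 2.09 and 0.136 RPKM in Crlf2-deleted lung Tregs. The alveolar type II marker Sftpc had 21.6, 6.94 and 6.73 RPKM in Crlf2-deleted and 36.8, 14.1 and 111 RPKM in control libraries, and was at 0 in spleen. Slc11a1 had 0.526, 0.315 and 3.96 RPKM in control lung Tregs, against 0.159 and 0.17 RPKM in TCR cultures, Slc7a8 had 0.128, 0.232 and 2.99 RPKM, against 0.101 and 0.035 RPKM, and Slc16a11 had 9.03, 0.591 and 1.15 RPKM, against 0.10 and 0.0981 RPKM. Here too the part of other lung cells was not tested.

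**Figure D5:**
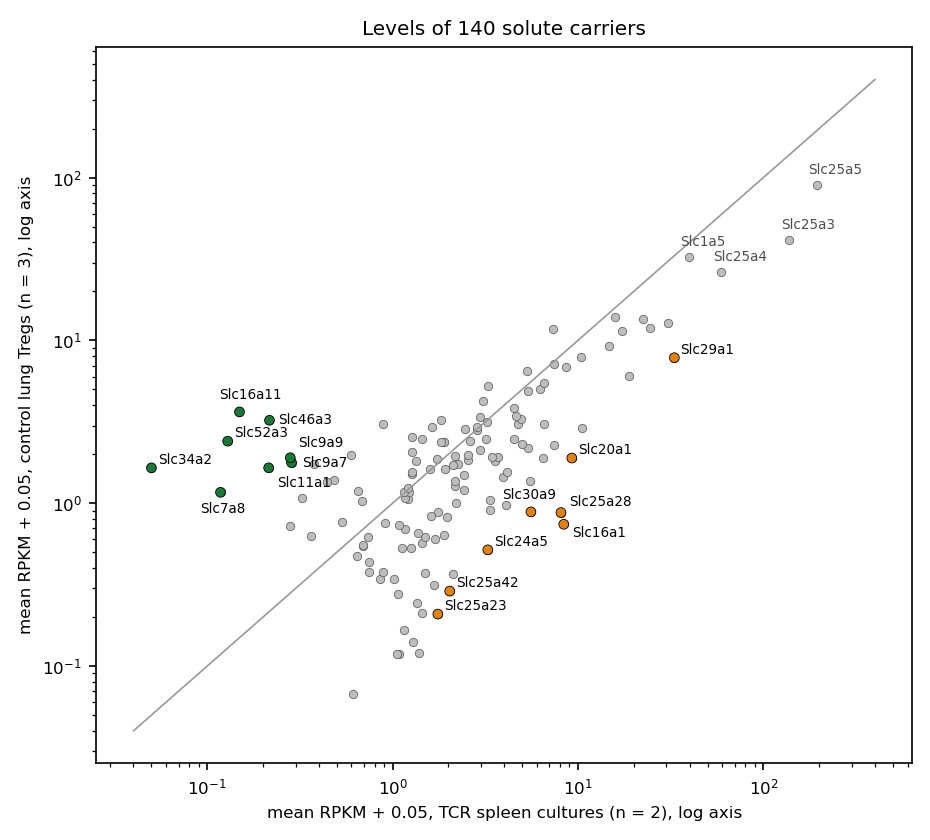
Each point is 1 of the 140 solute carriers, with its mean RPKM + 0.05 in TCR spleen cultures (2 libraries) on the horizontal and in control lung Tregs (3 libraries) on the vertical axis, both logarithmic, and the line marks equal values. Orange and green mark the 8 genes farthest towards spleen and the 8 farthest towards lung on log2(RPKM + 0.5); most points lie below the line, where deposited RPKM is lower in lung.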

How the data were processed

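RNA sequencing was deposited for 10 libraries of mouse Tregs in 4 groups, which were taken with their replicate numbers from the labels. Libraries of TCR-stimulated cells came from a stranded, ribosomal RNA-depleted total RNA kit and were read as single ends, per the labels' protocols, and the kit of the lung libraries is not given separately there. Each deposited table lists 31682 RefSeq transcripts on mm10 with whole read counts and RPKM, per the file headers. The authors scaled the deposited RPKM to a total that exceeds the listed reads, as a check of the files showed. Tools named in the submitters' processing notes are bedtools 2.25.0, SAMtools 0.1.8, Bowtie2 2.2.6, TopHat2 2.2.1 and edgeR. No source used here names the counting tool, its strand rule or how multimapping reads were treated, so genes with overlapping neighbours or near-identical copies are uncertain. At least 10% of the exon bases of 15 of the 140 genes are shared with another gene (GENCODE M21).

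Of 23992 symbols, 4343 had several transcripts, and the one with the most reads on average was kept. Counts were tested within each comparison over all genes by the two-sided quasi-likelihood test of edgeR 4.0.16 (R 4.3.3), with a robust fit, TMM factors and a filterByExpr minimum of 10 counts, and with Benjamini-Hochberg adjustment over all genes and a threshold of 0.05. Where no other tool is named, adjusted p-values come from it. CPM are counts scaled to the library size after TMM. The SE was taken from the log2 fold change and the F statistic. The length trend was a loess curve (span 0.3) of log2 counts on transcript length in each library, and a further alternative added GC content. Other alternatives were the replicate block, DESeq2 1.42.0, limma 3.58.1 on log2(RPKM + 1) and log2(RPKM + 0.25), other scalings and filters, a fit of all groups, summed transcripts and leaving out each library. The code was tested on simulated data.

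The members, classes and lists were chosen with earlier results of these data known. Genes were named by rule: up to 3 higher and 3 lower in each class by p among called genes whose groups did not overlap, the 10 with the smallest p in the lung comparison, a set of key transporters in both comparisons (1 of them is not reported here), and the levels at the top of each class, near the threshold, at the threshold in 1 group and farthest apart between lung and spleen. Slc1a4, Slc7a3, Slc16a10, Slc6a9, Slc35a2, Slc25a40, Slc25a12, Slc25a17, Slc25a32, Slc25a37, Slc25a3 and Slc25a4 in the TSLP comparison, the other metal transporters called there, and Slc7a8, Slc2a6, Slc16a11, Slc31a2, Slc29a3, Slc52a2 and Slc12a4 in the lung comparison were named after their values were seen, as were the genes of the accompanying lists. Control library 2 had the fewest reads (1439675) and gives the least precise values. Promoter sequences are from RefSeq (GRCm38.p6), gene positions likewise.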

Additional observations from a re-analysis of the deposited data

How the results depend on the processing

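In the TSLP comparison 6050 genes and 61 solute carriers (51 higher, 10 lower) were called. With limma on log2(RPKM + 1) 78 solute carriers were higher and 2 lower, with limma on log2(RPKM + 0.25) 78 and 3, with library totals 5 were lower, with the length trend removed 22 were lower, and 17 when the GC trend was removed too. The fit of all 4 groups, which shares one spread with the more variable lung libraries, called 1356 genes and 10 solute carriers (8 higher, 2 lower). Leaving out 1 library gave 3212 to 8624 genes and 27 to 82 solute carriers, with 21 to 66 higher and 6 to 17 lower. In the lung comparison 227 genes and 4 solute carriers (2 higher, 2 lower) were called. DESeq2 called 942 genes and 10 solute carriers (6 higher, 4 lower), limma on log2(RPKM + 1) 1051 and 15 (14 and 1), limma on log2(RPKM + 0.25) 1025 and 16 (15 and 1), the fit of all 4 groups 873 and 12 (7 and 5), and summed transcripts 134 and 1 (1 and 0). Length and GC trends removed left 2 solute carriers (1 and 1), library totals 2 (0 lower), and median-of-ratios factors and no filter on low counts 1 lower each. Leaving out 1 library gave 4 to 532 genes and 0 to 8 solute carriers, with 0 to 6 higher and 0 to 2 lower. The causes of these differences were not tested.

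The deviations of same-numbered libraries from their group means had correlations of -0.12 in spleen and -0.15 to 0.08 in lung. With 2 libraries a group, the spleen correlations are 1 value with either sign, so they cannot settle whether libraries were paired. The labels name no pairs, and the main fit did not take replicate numbers as pairs. The replicate block called 5817 genes and 59 solute carriers in spleen (49 and 10), and 121 genes and 1 solute carrier in lung (1 higher, 0 lower). With the spleen numbers crossed, chosen after seeing the data, the block called 7107 genes and 69 solute carriers.

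Signs turned under some alternative for 6 of 45 named genes in the TSLP comparison and 10 of 27 in the lung comparison. In the TSLP comparison, limma on log2(RPKM + 1) and log2(RPKM + 0.25) gave 0.054 and 0.055 for Slc39a7, 0.065 and 0.067 for Slc29a1 and 0.27 and 0.29 for Slc20a1; Slc20a1 was 0.15 with library totals and 0.081 with summed transcripts. Slc50a1 was 0.0021 with the length trend removed and 0.11 with the GC trend removed too. Slc7a11 was -0.0064 with median-of-ratios factors, -0.037 with a mean RPKM of at least 1, -0.14 and -0.40 with the trends removed and -0.34 to 0.46 with 1 library left out, and Slc35a1 -0.023 to 0.43. In the lung comparison, genes that were not called turned sign: limma gave 0.18 and 0.25 (Slc7a1), 0.32 and 0.38 (Slc7a6), 0.071 and 0.15 (Slc7a11), 0.30 and 0.38 (Slc38a1), 0.12 and 0.14 (Slc38a2), 0.24 and 0.34 (Slc4a7) and 0.17 and 0.17 (Slc25a5). Library totals gave 0.023 (Slc7a1), 0.16 (Slc7a6), 0.17 (Slc38a1) and 0.12 (Slc4a7). Slc7a6 was 0.015 with DESeq2, 0.011 with no filter, 0.013 with all groups and 0.00013 with median-of-ratios factors. Slc38a1 was 0.0023 with no filter, and Slc4a7 was 0.053 without the length and GC trends. With 1 library left out, ranges were -0.088 to 0.10 (Slc7a6), -0.40 to 0.056 (Slc7a11), -0.10 to 0.13 (Slc38a1), -0.25 to 0.13 (Slc4a7), -0.00099 to 2.17 (Slc11a1), -0.0092 to 0.52 (Slc19a1) and -0.033 to 0.24 (Slc29a1). Membership came to 138 to 141 genes with 1 library left out, and depth limits control library 2 most. It came to 157 genes at a group mean of 0.5 RPKM, 106 at 2 RPKM and 133 with at least 1 RPKM in every library of a group. The longest transcript of each symbol gave 140. With RPKM rescaled to gene reads, a setting not planned beforehand, 181 genes reached the threshold.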
